A study of Mus musculus with 12 samples.

Results

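Purkinje cells are the large inhibitory neurons whose axons form the only output of the cerebellar cortex. The genes described here are 29 markers of Purkinje cell identity and signalling, chosen by gene symbol from the 18394 genes of the count table, with calcium buffers and inositol trisphosphate (IP3) receptors left out. They were read in the cerebella of 6 mice labelled as Crfr1 knockouts made with a Δα6-Cre driver (cKO) and of 6 mice labelled wild type (WT). Crfr1, a receptor for the stress peptide corticotropin-releasing factor, is listed in the table as Crhr1. The labels give no age, sex or litter, and they do not say whether the WT animals carried a floxed allele or the driver. By its name the driver uses sequences of Gabra6, a GABA-A receptor subunit gene typical of granule cells; the labels do not say in which cells it is active. The libraries were made from dissected cerebella, in which Purkinje cells are a small minority beside granule cells, and fewer Purkinje cells and less RNA per cell cannot be told apart in such samples.

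Purkinje cells receive climbing fibre and parallel fibre input, and part of this input acts through Gq proteins and phospholipase C beta, which makes IP3. IP3 then releases calcium from internal stores. The transcription factor RORα drives much of the adult Purkinje programme. Purkinje cells also form parasagittal stripes that differ in aldolase C (zebrin II), and genes such as Plcb3 and Slc1a6 follow the positive stripes whereas Plcb4 and Ebf2 follow the negative ones.

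Libraries held 32.3 to 58.7 M (mega) counts in cKO and 23.8 to 62.1 M in WT. All 29 genes were detected in all 12 libraries, with at least 103 counts each, and all 29 passed the filter on low counts. Of the genes that bear on the labels, Crhr1 stood at 98.8 ± 6.00 CPM in cKO and 97.6 ± 4.31 CPM in WT, and Gabra6 at 623 ± 29.99 CPM in cKO and 813 ± 56.1 CPM in WT (SD, n = 6 each; CPM, counts scaled by TMM to a common library size). Counts over a whole gene do not check a deletion that spares part of the transcript or some of the cells. Markers of other cells included genes that passed the test over all genes described below, as 2.64% of all tested genes did. The summed CPM of 10 inhibitory interneuron markers ran from 541 to 615 in cKO and from 624 to 645 in WT, with no overlap, and 1 of the 10 (Lgi2) fell. Kit alone averaged 291 CPM in cKO and 307 CPM in WT within these sums. For single genes, groups without overlap were seen in 2.09% of all tested genes. All 6 microglia markers had a positive log2 fold change, and 2 of them (Csf1r and Cx3cr1) rose. Of 4 unipolar brush cell markers 1 rose (Calb2) and 1 fell (Eomes, at 11.8 ± 1.17 CPM in cKO and 21.8 ± 2.06 CPM in WT; SD, n = 6 each). Of 8 Bergmann glia and astrocyte, 8 oligodendrocyte, 4 endothelial and 4 choroid plexus markers, 0 passed. The choroid plexus markers varied widely within genotype: their summed CPM ran from 127 to 984 in cKO and from 185 to 609 in WT. The part of these cells in the values below was not tested. A score of forebrain and midbrain markers (mean log2 level of 10 genes) was 0.38 to 0.83 in cKO and 0.26 to 0.51 in WT, and was highest in cKO replicate 1.

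None of the 29 Purkinje cell genes changed between cKO and WT cerebella in the test over all genes. With edgeR's quasi-likelihood test over 15467 genes and Benjamini-Hochberg adjustment, 0 of 29 members passed an adjusted p of 0.05, against 2.64% of all tested genes. With a background this low, a count of 0 in 29 does not set the members apart. The smallest adjusted p of a member was 0.0602, for B3galt5. At an unadjusted p under 0.05 the members numbered 6, of which 5 were lower and 1 higher in cKO, or 20.7% against 14.2% of all tested genes. DESeq2's Wald test on the same counts called 2 of 29, En2 and B3galt5, against 4.1% of all genes with an adjusted p. The authors' deposited table calls the same 2 members, against 3.71% of the genes to which it gives an adjusted p. That table is a DESeq2 result for the same libraries, so it is not an independent result. For no member did the 6 values of one genotype all lie above the 6 of the other, which held for 2.09% of all tested genes.

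The members' differences were small and evenly split. There were 14 positive and 15 negative log2 fold changes, with a median of −0.0020, beside a median of −0.00027 over all tested genes. The median size without sign was 0.043 for the members and 0.045 for all tested genes. For 18 of the 29 the whole 95% interval lay within a fold of 1.1 in either direction, against 48.2% of all tested genes. For 27 of the 29 it lay within a fold of 1.2, against 74.3%, so the members' intervals were more often narrow. Of the members, 27 averaged at least 10 CPM, a level reached by 10347 of the 15467 tested genes. Car8 and Foxp2 were the 2 members whose interval reached past 1.2.

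**Figure D1:**
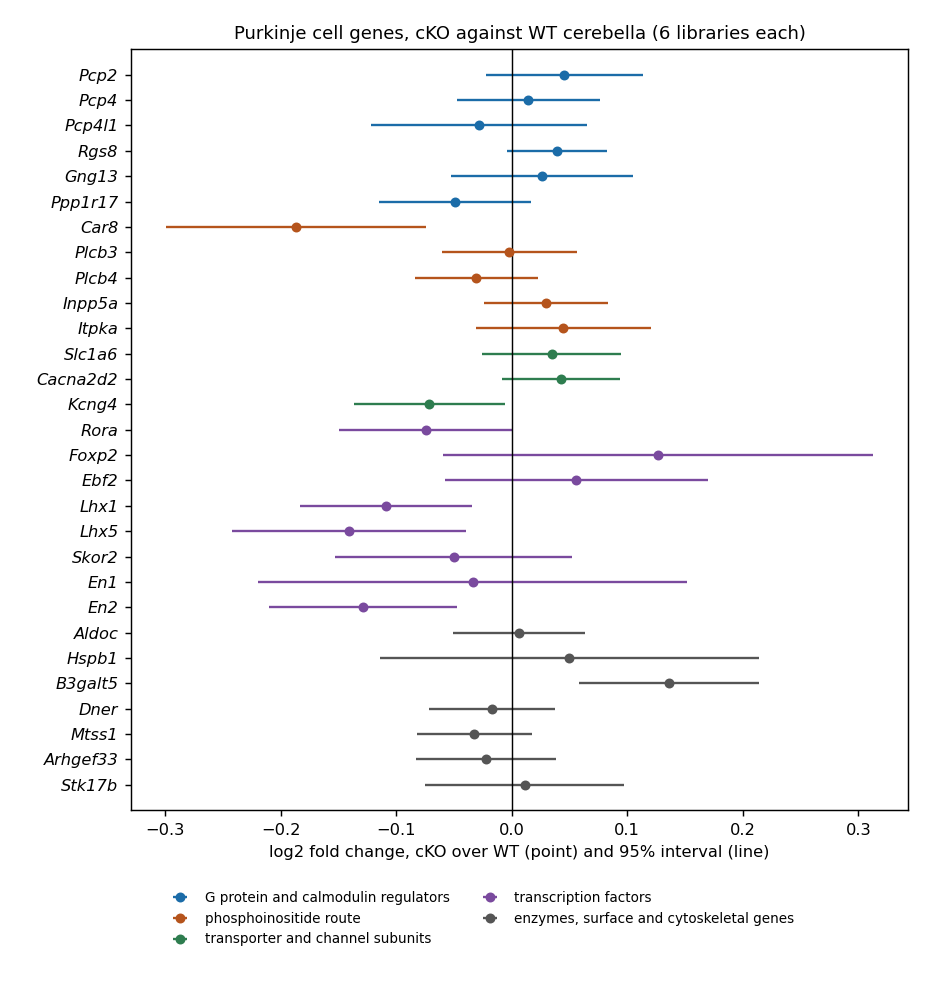
Log2 fold change of each of the 29 genes, cKO over WT, on the x axis, with its 95% interval from edgeR, coloured by role; 6 libraries per genotype. The intervals of Car8, Kcng4, Lhx1, Lhx5, En2 and B3galt5 lie to one side of 0, and 0 of the 29 passed after adjustment over all genes.

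Several members were abundant even in whole tissue. Aldoc, Car8 and Rgs8 averaged over 1000 CPM, a level reached by 55 of all tested genes. Per exon length, Aldoc stood highest, at 564 ± 20.9 CPM per kb in cKO and 561 ± 19.4 in WT (SD, n = 6 each). Aldoc encodes the glycolytic enzyme aldolase C and is also expressed by astrocytes, so its level is not that of Purkinje cells alone. Car8 followed with 413 ± 45.1 CPM per kb in cKO and 471 ± 19.8 in WT, and Pcp4 with 328 ± 14.7 in cKO and 325 ± 9.50 in WT (SD, n = 6 each). Several transcription factor genes were at the low end. Foxp2 had 0.98 ± 0.14 CPM per kb in cKO and 0.90 ± 0.11 in WT, and En1 had 1.86 ± 0.23 in cKO and 1.90 ± 0.18 in WT (SD, n = 6 each). Skor2, a corepressor gene needed for Purkinje cell differentiation, had 4.48 ± 0.30 CPM per kb in cKO and 4.64 ± 0.24 in WT (SD, n = 6 each).

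**Figure D2:**
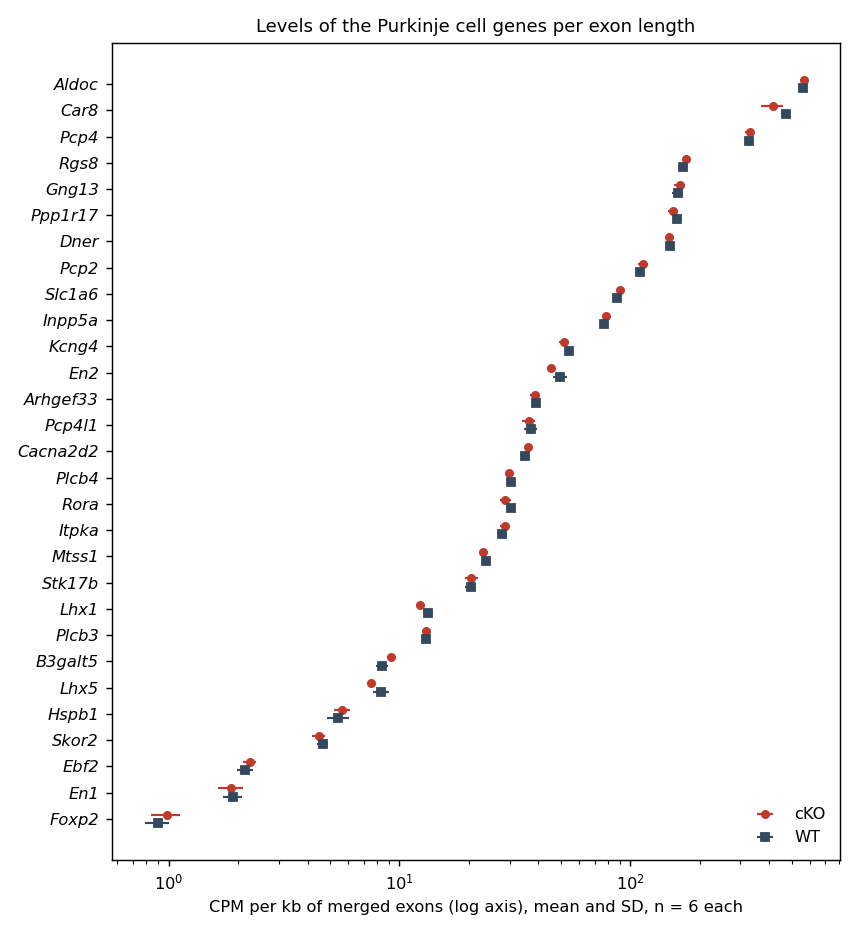
Level of each gene in CPM per kb of merged GENCODE exons on a log axis, with circles for cKO and squares for WT, mean and SD of 6 libraries each. The genes span levels from 0.98 (Foxp2) to 564 (Aldoc) CPM per kb in cKO, and the cKO and WT points of a gene lie close together on this axis.

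The 6 members that regulate G proteins, calmodulin or phosphatases had 4 positive and 2 negative log2 fold changes, from −0.049 to 0.045. Pcp2 (L7), a GoLoco-domain regulator of inhibitory G proteins whose promoter is widely used to target Purkinje cells, had a lowest, median and highest level of 198, 206 and 222 CPM in cKO, against 185, 203 and 209 CPM in WT. The ranges overlapped, with the lowest library in WT and the highest in cKO, and the log2 fold change was 0.045 (SE 0.032, edgeR adjusted p = 0.577). The calmodulin-binding protein gene Pcp4 (PEP-19) measured 337 ± 15.1 CPM in cKO and 334 ± 9.75 in WT, and its relative Pcp4l1 57.2 ± 3.58 in cKO and 58.3 ± 3.62 in WT (SD, n = 6 each). Neither passed (edgeR adjusted p = 0.887 and 0.840).

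Rgs8, which speeds the switching off of G proteins, had the smallest within-group SD of the 29 members. Its lowest, median and highest levels were 1622, 1677 and 1715 CPM in cKO, against 1588, 1625 and 1690 CPM in WT. Its log2 fold change was 0.039 (95% interval −0.0039 to 0.082, edgeR adjusted p = 0.405). The two-sided exact permutation test gave Rgs8 an unadjusted p = 0.0455. Permutation p-values were computed for all 29 members without adjustment and are printed mainly where they were small. Their share over all tested genes was not computed. Gng13, a G protein gamma subunit, measured 127 ± 6.71 CPM in cKO and 124 ± 6.74 in WT (SD, n = 6 each). Ppp1r17 (G-substrate), a phosphatase inhibitor that is a target of cGMP-dependent kinase, measured 270 ± 12.5 CPM in cKO and 279 ± 9.91 in WT (SD, n = 6 each; log2 fold change −0.049, edgeR adjusted p = 0.516).

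Of the 5 members on the phosphoinositide route, Car8 had the lowest log2 fold change of all 29 genes. Car8 (chromosome 4, 8143362 to 8239041, mm10) encodes a carbonic anhydrase relative without enzyme activity that binds the IP3 receptor and lowers its affinity for IP3, and mice without it are ataxic. Its levels in cKO were 1390, 1724, 1402, 1625, 1588 and 1829 CPM in replicates 1 to 6, against 1797, 1808, 1952, 1730, 1763 and 1827 CPM in WT replicates 1 to 6. The cKO libraries spread widely: 5 of the 6 lay below every WT library, with replicates 1 and 3 the lowest and replicate 2 only just below, and replicate 6 lay within the WT range. The difference was −12.1% (log2 fold change −0.19, SE 0.054, 95% interval −0.30 to −0.074, edgeR adjusted p = 0.0762; two-sided exact permutation test, p = 0.0195). It passed without cKO replicate 6 (log2 fold change −0.23, adjusted p = 0.00978).

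The 2 cKO libraries lowest in Car8 were also the 2 highest in the forebrain and midbrain score. With that score as a covariate the log2 fold change of Car8 was −0.065 (SE 0.056, edgeR adjusted p = 0.732), and with the 4 highest-scoring libraries left out it was −0.078 (SE 0.039, adjusted p = 0.542). The share of other tissue in these libraries was not measured apart from the score, and its part in the Car8 values was not tested. Within groups, Car8 had the second largest SD of the log2 level among the 55 genes at 1000 CPM or more (0.12). Its coefficient of variation was 10.9% in cKO and 4.20% in WT.

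The other members of this route did not pass. Of the 2 phospholipase C beta genes, which make IP3 on Gq activation, Plcb3 measured 90.9 ± 3.55 CPM in cKO and 91.1 ± 2.47 in WT, and Plcb4 268 ± 7.64 in cKO and 274 ± 8.07 in WT (SD, n = 6 each). Their log2 fold changes were −0.0020 (95% interval −4.12% to 4.02%) and −0.031 (−5.64% to 1.56%; edgeR adjusted p = 0.989 and 0.646). The other pair are enzymes that remove IP3. Inpp5a, a 5-phosphatase, measured 445 ± 13.0 CPM in cKO and 436 ± 13.8 in WT, and Itpka, a 3-kinase that also bundles actin, 52.0 ± 2.27 in cKO and 50.4 ± 2.53 in WT (SD, n = 6 each; edgeR adjusted p = 0.669 and 0.635).

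Of other genes of Purkinje cell calcium signalling, none of them members, Camk2a, Grid2ip, Pvalb and Prkg1 are described here, and none of these 4 passed. Camk2a, a kinase gene also abundant in forebrain, measured 142 ± 18.9 CPM in cKO and 119 ± 9.86 in WT (SD, n = 6 each; log2 fold change 0.25, edgeR adjusted p = 0.0725). The delta receptor scaffold gene Grid2ip, the calcium buffer gene Pvalb and the cGMP-dependent kinase gene Prkg1 had log2 fold changes of 0.057, −0.040 and −0.055. The IP3 receptor gene Itpr1 and the buffer gene Calb1, chosen for their role after their values were seen, did not pass either. Itpr1 measured 4064 ± 169 CPM in cKO and 4103 ± 141 in WT, and Calb1 983 ± 50.2 in cKO and 1007 ± 34.5 in WT (SD, n = 6 each; edgeR adjusted p = 0.887 and 0.690).

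Transport and excitability are served by 3 members. Slc1a6 (EAAT4), the glutamate transporter of Purkinje cell spines, measured 194 ± 7.78 CPM in cKO and 189 ± 5.73 in WT, and Cacna2d2, an auxiliary calcium channel subunit whose loss causes ataxia in ducky mice, 287 ± 6.20 in cKO and 279 ± 8.52 in WT (SD, n = 6 each). Their log2 fold changes were 0.035 and 0.043 (edgeR adjusted p = 0.646 and 0.452). Kcng4, a potassium channel subunit that is silent alone and modifies Kv2 channels, had lowest, median and highest levels of 182, 194 and 211 CPM in cKO, against 201, 204 and 214 CPM in WT. In Kcng4, 4 of the 6 cKO libraries lay below the WT range, and the difference was −4.84% (log2 fold change −0.072, SE 0.031, edgeR adjusted p = 0.296). The two-sided exact permutation test gave Kcng4 an unadjusted p = 0.0584.

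A list of 16 genes of Purkinje cell firing and inherited ataxia had 0 calls among its 16 tested genes, with 9 positive and 7 negative log2 fold changes. The 4 with the smallest p were all higher in cKO without passing: the T-type calcium channel gene Cacna1g (log2 fold change 0.077), the sodium channel genes Scn8a (0.055) and Scn4b (0.11), and Atxn1 (0.079). Their edgeR adjusted p ran from 0.152 to 0.367.

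Of the 8 transcription factor members, 6 had a negative log2 fold change, and none of the 8 passed. Rora, which encodes RORα and is mutated in staggerer mice, had lowest, median and highest levels of 351, 371 and 405 CPM in cKO, against 377, 391.6 and 425 CPM in WT. The groups overlapped, and the difference was −5.01% (log2 fold change −0.074, SE 0.036, edgeR adjusted p = 0.361). The two-sided exact permutation test gave Rora an unadjusted p = 0.11. RORα also acts in cerebellar interneurons, so its total is shared between cell types.

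RORα binds DNA at sites with the core AGGTCA, a motif it shares with other nuclear receptors. Among the 250 bases before each RefSeq start (GRCm38.p6), 21 of the 29 members had a window, 32 windows in all, and 9 of these (28.1%) held AGGTCA on either strand, against 14.02% of 32851 windows of all genes. By gene, 7 of the 21 members held it in any window, against 15.8% of genes. Members with several starts count more than once in the first share, and a match describes the letters and not a bound site. The windows of 30 bases around the motif are shown for 5 of these genes, since they place the core at Purkinje genes beside the Rora values; the capitals mark AGGTCA or, read on the other strand, TGACCT, and each line runs 5′ to 3′ on the strand of its gene.
Pcp2 (chr8:3625548-3625577, minus strand): cttttaaaaggccttctcAGGTCAgagacc
Pcp4 (chr16:96467430-96467459, plus strand): tccttgctattgTGACCTgatcagccatga
Dner (chr1:84696315-84696344, minus strand): cttggatgtgcaAGGTCAggtccttgagaa
Arhgef33 (chr17:80307319-80307348, plus strand): cacttgattagcTGACCTggagcttatgta
B3galt5 (chr16:96273309-96273338, plus strand): agtgatgttttgTGACCTcttcactgcggt
The printed Pcp2 motif ends 7 bases before one of that gene's RefSeq starts. A further Pcp2 motif, not printed, ends 21 bases before another RefSeq start of Pcp2. The motif of Arhgef33 ends 71 bases before its start. Of the 7 genes with the motif, Pcp2, Pcp4, Rgs8, Plcb3, Dner and Arhgef33 had log2 fold changes of 0.045, 0.014, 0.039, −0.0020, −0.017 and −0.022, each with a 95% interval that spans 0. B3galt5 had 0.14, with an interval from 0.058 to 0.21, and none of the 7 passed.

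The LIM homeobox factors Lhx1 and Lhx5, which act together in Purkinje cell differentiation, were both lower in cKO without passing. Lhx1 (chromosome 11, 84518284 to 84525535, mm10) had lowest, median and highest levels of 47.7, 50.0 and 53.6 CPM in cKO, against 50.4, 54.2 and 58.2 CPM in WT. Its difference was −7.28% (log2 fold change −0.11, SE 0.036, edgeR adjusted p = 0.133; two-sided exact permutation test, p = 0.0173). The log2 fold change of Lhx1 was −0.070 (adjusted p = 0.634) with the forebrain and midbrain score as a covariate and −0.043 (adjusted p = 0.834) with surrogate variables. With the 4 highest-scoring libraries left out it was −0.13 (edgeR adjusted p = 0.163). Lhx5 (chromosome 5, 120431699 to 120441223) had 19.0, 20.1 and 21.6 CPM in cKO, against 19.6, 23.2 and 24.0 CPM in WT. In Lhx5 the 4 highest WT libraries lay above all 6 cKO libraries and WT replicate 4 lay among the lowest. Its difference was −9.32% (log2 fold change −0.14, SE 0.048, edgeR adjusted p = 0.156), and without WT replicate 4 it passed (−0.17, adjusted p = 0.0488). The two-sided exact permutation test gave Lhx5 an unadjusted p = 0.0303. With the 4 highest-scoring libraries left out, the log2 fold change of Lhx5 was −0.077 (adjusted p = 0.753). With the score as a covariate it was −0.13 (edgeR adjusted p = 0.486).

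The engrailed factor En2 (chromosome 5, 28165694 to 28172166, mm10), which patterns the cerebellum and is also expressed in granule cells, had lowest, median and highest levels of 154, 157 and 169 CPM in cKO, against 165, 173 and 189 CPM in WT. In En2, 4 cKO libraries lay below every WT library, and WT replicates 1, 2 and 3 lay above every cKO library. The difference was −8.56% (log2 fold change −0.13, SE 0.039, edgeR adjusted p = 0.0958; two-sided exact permutation test, p = 0.0216). En2 passed with DESeq2 (adjusted p = 0.0376), and the authors' DESeq2 table of the same libraries gives it an adjusted p of 0.0415. With the forebrain and midbrain score as a covariate its log2 fold change was −0.080 (edgeR adjusted p = 0.610), and with surrogate variables −0.084 (0.576). Without the 4 highest-scoring libraries it was −0.14 (edgeR adjusted p = 0.259). Granule cell markers moved in both directions in the same libraries, with 1 of 10 higher (Etv1) and 3 lower (Gabra6, Zic1 and Pax6) in cKO; their part in the En2 values was not tested. En1, its close relative, was near the lower limit of the set at 4.89 ± 0.60 CPM in cKO and 4.98 ± 0.47 in WT (SD, n = 6 each).

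The remaining transcription factors were rare and had wide intervals. Foxp2, expressed in Purkinje cells and also in several forebrain regions, measured 16.03 ± 2.24 CPM in cKO and 14.7 ± 1.78 in WT (SD, n = 6 each). Its log2 fold change of 0.13 (SE 0.089, edgeR adjusted p = 0.566) became −0.056 (SE 0.098, adjusted p = 0.889) with the forebrain and midbrain score as a covariate. Without the 4 highest-scoring libraries it was 0.12 (edgeR adjusted p = 0.7865). Ebf2, a factor of the zebrin-negative stripes, measured 15.6 ± 0.94 CPM in cKO and 14.9 ± 1.18 in WT, and Skor2 14.1 ± 0.93 in cKO and 14.6 ± 0.76 in WT (SD, n = 6 each). Neither passed (edgeR adjusted p = 0.710 and 0.713).

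**Figure D3:**
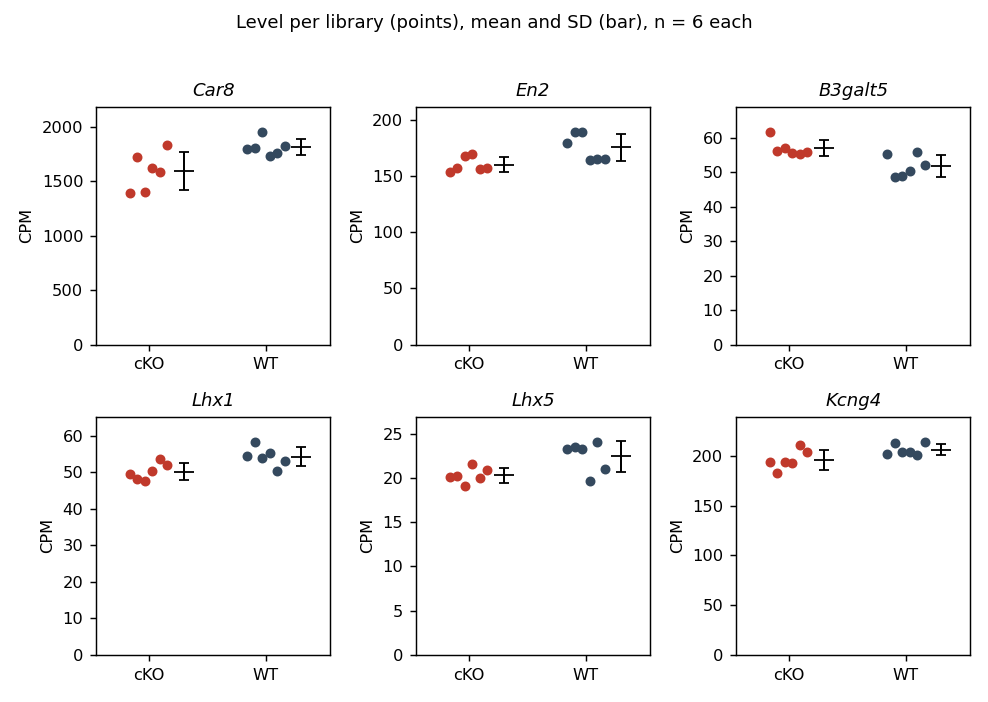
CPM per library (points) with mean and SD (bars) for the 6 members with an unadjusted p under 0.05, 6 cKO libraries left and 6 WT libraries right, on axes from 0. Car8 in cKO spreads from 1390 to 1829, and in each panel at least 1 cKO library falls within the WT range.

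Among the other members, B3galt5 had the highest log2 fold change of the set and its smallest p. B3galt5 (chromosome 16, 96235801 to 96319859, mm10) encodes a galactosyltransferase of glycolipid and glycoprotein chains. Its levels were 61.6, 56.1, 57.0, 55.6, 55.3 and 55.7 CPM in cKO replicates 1 to 6, against 55.1, 48.7, 48.9, 50.3, 55.7 and 51.9 CPM in WT replicates 1 to 6. The cKO libraries other than replicate 1 clustered tightly, WT replicate 5 lay within the cKO range, and WT replicate 1 just below it. The difference was 9.89% (log2 fold change 0.14, SE 0.037, 95% interval 0.058 to 0.21, edgeR adjusted p = 0.0602; two-sided exact permutation test, p = 0.00866). The authors' DESeq2 table of the same libraries gives B3galt5 an adjusted p of 0.0182. B3galt5 passed with DESeq2 (adjusted p = 0.0171), without WT replicate 1 (edgeR adjusted p = 0.0431) and without WT replicate 5 (0.0261). With the forebrain and midbrain score as a covariate its log2 fold change was 0.060 (SE 0.042, adjusted p = 0.656). With the 4 highest-scoring libraries left out it was 0.13 (edgeR adjusted p = 0.1625).

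The 6 further members of this group did not pass. Aldoc measured 1839 ± 68.3 CPM in cKO and 1830 ± 63.3 in WT (SD, n = 6 each), a log2 fold change of 0.0065 with a 95% interval from −0.051 to 0.064. Dner, a Notch-related surface protein through which Purkinje cells act on Bergmann glia, measured 702 ± 17.5 CPM in cKO and 710 ± 26.2 in WT (SD, n = 6 each). Mtss1, a membrane-bending actin regulator of dendrites, measured 262 ± 6.58 CPM in cKO and 268 ± 6.71 in WT (SD, n = 6 each). The 95% interval of Mtss1 ran from −5.54% to 1.23%. Arhgef33, a predicted guanine nucleotide exchange factor, measured 181 ± 8.16 CPM in cKO and 183 ± 4.58 in WT, the kinase gene Stk17b 106 ± 6.81 in cKO and 106 ± 5.65 in WT, and Hspb1, a small heat shock protein of a subset of Purkinje cells and of vessels, 5.82 ± 0.47 in cKO and 5.61 ± 0.62 in WT (SD, n = 6 each). None of the 6 passed (edgeR adjusted p = 0.592 to 0.952).

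The balance of zebrin-positive and zebrin-negative stripe genes was described by ratios within each library. The ratio of Aldoc to Plcb4 CPM had a lowest, median and highest value of 6.50, 6.74 and 7.64 in cKO, against 6.18, 6.65 and 7.11 in WT. For Plcb3 over Plcb4 the values were 0.322, 0.334 and 0.380 in cKO, against 0.316, 0.335 and 0.343 in WT. For Slc1a6 over Plcb4 they were 0.670, 0.727 and 0.781 in cKO, against 0.662, 0.683 and 0.736 in WT. All 3 ranges overlapped between genotypes. Of the 3 positive and 3 negative stripe genes listed, 0 were called.

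Within a genotype the members did not vary as a block. After removal of the group means, Pearson's r over the 12 libraries had a median of 0.076 over the 406 member pairs, with a range from −0.91 to 0.87, and a median of −0.0024 between members and the other tested genes. Each r rests on 12 libraries that share depth and dissection, and is given as a description. Plcb4 and Rora had the highest r of a pair, and Inpp5a the highest median r with the other members (0.46). The mean deviation of the 29 genes from their own averages stayed between −0.023 and 0.022 (log2) in the cKO libraries and between −0.015 and 0.024 in the WT libraries. The median within-group SD of the log2 level was 0.063 for the 27 members of at least 10 CPM, beside 0.059 for all 10347 genes of that level.

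**Figure D4:**
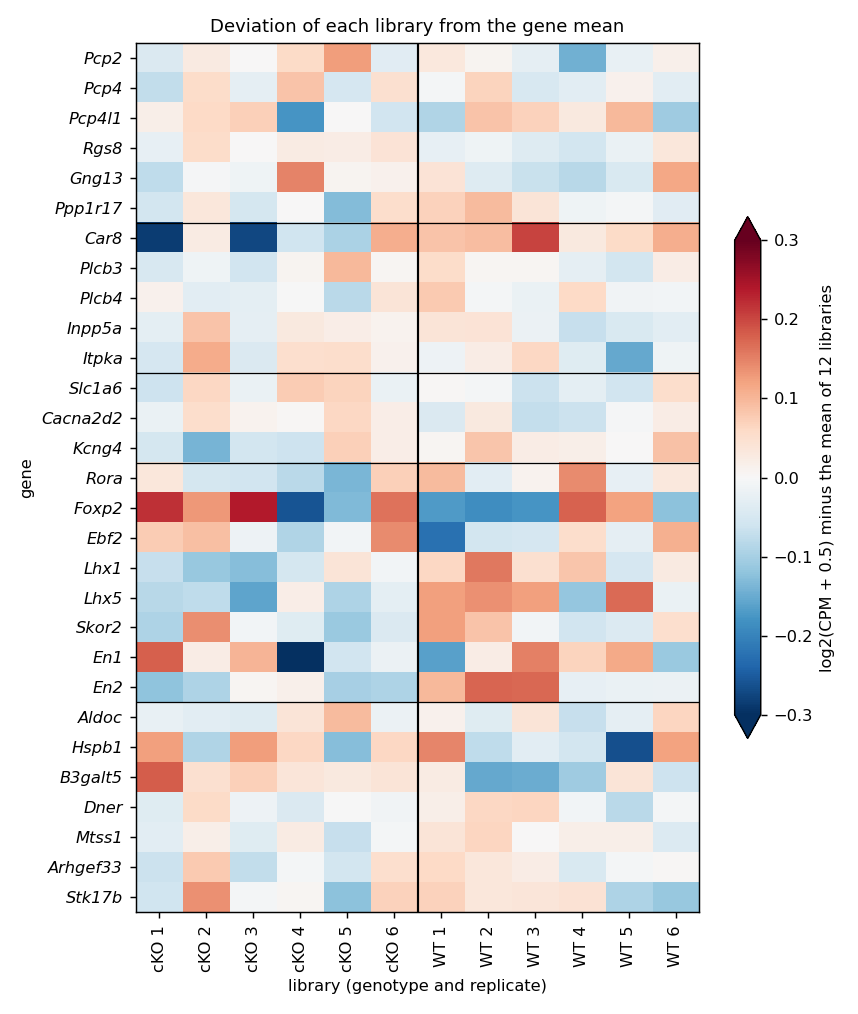
Deviation of log2(CPM + 0.5) in each library from the mean of that gene over all 12 libraries, with 6 cKO columns left of 6 WT columns and genes grouped by role. Car8 is low in cKO replicates 1 and 3, Lhx1, Lhx5 and En2 are mostly lower in the cKO columns, and no library is high or low over the whole set.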

How the data were processed

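Messenger RNA of 12 whole cerebella, 6 cKO and 6 WT by the genotype label, was sequenced with a stranded kit and all samples on the same lanes, per the labels' protocols. One deposited table holds unnormalised read counts by gene symbol. Per the submitters' processing notes, STAR, DESeq2 and mm10 were used. How reads were counted, with which annotation and strand setting, is not given in the sources used here. The authors also deposited a comparison with a mean signal, log2 fold change and standard error, a test score, p-values and adjusted p-values per gene, per the file headers. The direction of its folds is not stated, but all 400 genes called in both analyses had the same sign. All 12 count columns matched a sample, with 0 left over.

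The main test used edgeR 4.0.16 (R 4.3.3): filterByExpr, TMM, glmQLFit and glmQLFTest over all genes, Benjamini-Hochberg adjustment at 0.05, no covariate. SEs and intervals derive from the test statistic. Exact permutation tests used the 924 assignments of 12 libraries to 6 and 6 on log2(CPM + 0.5), whose smallest p is 0.00216. Their p-values are unadjusted and were computed for the members only. Alternatives used DESeq2 1.42.0, sva 3.50.0 (3 surrogate variables), other scalings and filters, a tissue score, and each library left out. The gene test was tested on simulated data.

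The members and gene lists were chosen with earlier results of these data known; all members are named, and of other lists the genes that passed, plus up to 4 by smallest p. Positions and merged exon lengths come from GENCODE M21 (mm10), and promoter sequences from RefSeq (GRCm38.p6). Exons of Pcp4 overlap Igsf5 on the same strand, and exons of Pcp2, Gng13, Plcb3 and Inpp5a overlap Pet100, Chtf18, Ppp1r14b and Nkx6-2 on the other, so their counts could hold reads of those genes. The same holds on the other strand for Rgs8 (Gm29529), Cacna2d2 (Gm17141), Rora (Gm15511), Ebf2 (Gm10860), Lhx5 (Gm27199), Dner (Mir5126) and Arhgef33 (Gm10190). Libraries of one group differed by more than counting noise (chi-square per degree of freedom at least 2.68 over 30 pairs). The series' design counts 6 cerebella per genotype, and the labels give no litter or batch. The p-values rate the difference between genotypes against the variation between these libraries. Beside the naming rule, Itpr1 and Calb1 were named after their values were seen. A gene of the calcium signalling list is not reported here, so no count over that list is given.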

Additional observations from a re-analysis of the deposited data

Results flagged for a closer look

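In the 60 groups of 6 libraries examined, 1 for each gene and genotype and not for members alone, 2 libraries stood apart from the rest of their group. About 1 group in 20 does so by chance. Pcp2 in WT replicate 4 was low, at 184.6 CPM with the next WT library at 200.1 CPM; without that library the log2 fold change of Pcp2 was 0.023 (edgeR adjusted p = 0.827). B3galt5 in cKO replicate 1 was high, at 61.6 CPM with the next cKO library at 57.0 CPM; without it the log2 fold change of B3galt5 was 0.11 (edgeR adjusted p = 0.123). That library also had the highest forebrain and midbrain score, and the part of other tissue in its B3galt5 value was not tested.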

How the results depend on the processing

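Of the 20 alternatives, 15 left the count of called members at 0. DESeq2 called 2 (En2 and B3galt5), and the fits that left out a library called 0 to 1: Car8 without cKO replicate 6, Lhx5 without WT replicate 4, and B3galt5 without WT replicate 1 or WT replicate 5. Over all genes the 409 calls (196 higher and 213 lower in cKO) became 122 (62 and 60) with the forebrain and midbrain score as a covariate, 189 (91 and 98) with surrogate variables, and 208 (98 and 110) without the 4 libraries highest in that score (cKO replicates 1, 3 and 5 and WT replicate 5), an alternative chosen after seeing the data that leaves fewer samples; for the other two settings the cause was not tested. Leaving out each library gave 272 to 459 calls, 134 to 214 higher and 138 to 248 lower, the fewest without WT replicate 3. Of 580 member values under the alternatives, 29 had the other sign, all of them uncalled and at most 0.056 in size. With library totals in place of TMM, with RLE factors and with other filters, 0 members were called. No paired analysis was possible because the labels give no replicate number that groups share. Of the members, Foxp2, En1 and Hspb1 have the widest intervals. En1 and Hspb1 have the lowest CPM. Foxp2 had the largest within-group SD of the log2 level (0.19), at a CPM close to that of Ebf2 and Skor2.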

Other observations

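B3galt5 and Pcp4 lie 148 kb apart on chromosome 16, with log2 fold changes of 0.14 and 0.014. On chromosome 11, which also holds Gabra6 and Crhr1, Aldoc is 36.0 Mb from Gabra6 and 25.8 Mb from Crhr1, and Lhx1 is 42.2 Mb from Gabra6 and 19.6 Mb from Crhr1.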
